A study of Mus musculus with 8 samples.

Results

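The mRNAs of 10 genes of antigen presentation were examined in mouse liver, 7 of the MHC class II route (H2-Aa, H2-Ab1, H2-Eb1, Cd74, H2-DMa, H2-DMb1 and Ciita) and 3 of the MHC class I route (H2-K1, H2-D1 and B2m). They were picked by symbol from the 52636 genes of the count tables, each symbol matched 1 Ensembl gene on GRCm38, and all 10 were among the 15248 genes that passed the low-count filter. The livers came from 8 male wild-type C57BL/6J mice, injected intraperitoneally at 7 weeks of age with AAV8-GFP (4 mice, animal numbers 303, 311, 314 and 315) or AAV8-AGXT (4 mice, 308, 309, 316 and 319). AAV8 is an adeno-associated virus that reaches the liver, and in both groups the TBG promoter restricted the transgene, GFP or human AGXT, to hepatocytes. From 8 weeks of age all the mice ate a MASH diet rich in fat, fructose and cholesterol for 24 weeks, so there is no healthy-liver group in the comparison. Whole liver was sequenced, and in such bulk samples fewer cells of a type and less RNA per cell cannot be told apart. The comparison asks whether the class II and class I genes differed in the same way between livers from mice treated with AAV8-AGXT and those treated with AAV8-GFP.

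MHC class II molecules are pairs of an alpha and a beta chain that show peptides from engulfed material to CD4+ T cells, and they are made mainly by dendritic cells, B cells and macrophages. The invariant chain (Cd74) escorts the new pair and blocks its groove, H2-DM exchanges the last fragment of the invariant chain for a peptide, and Ciita is the transactivator that switches these genes on at a shared promoter module. MHC class I molecules, a heavy chain joined to B2m, show peptides from inside the cell to CD8+ T cells and are present on nearly all nucleated cells, with Nlrc5 as their transactivator. In fatty liver disease class II is carried by the resident and recruited immune cells, whereas hepatocytes contribute to class I.

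The promoter windows of RefSeq on GRCm38.p6 covered 7 of the 10 genes, and they are shown for the class II promoter module and the class I elements they hold. The 4 shown are 2 class II chains, a class I heavy chain and B2m, each with the 200 bases before the start, 5′ to 3′ on the strand of the gene. Capitals mark matches on either strand to the Y box CTGATTGG, its core ATTGG (which lies inside it), the X1 box core GCAAC, the X2 box TGACGTCA, the enhancer A element GGGGATTCC and the interferon response core GAAANNGAA. The letters were chosen with the windows in view. The H2-Aa window is chr17:34287824-34288023, minus strand. The H2-Eb1 window is chr17:34305667-34305866, plus strand. The H2-K1 window is chr17:34000348-34000547, minus strand. The B2m window is chr2:122147487-122147686, plus strand.
H2-Aa: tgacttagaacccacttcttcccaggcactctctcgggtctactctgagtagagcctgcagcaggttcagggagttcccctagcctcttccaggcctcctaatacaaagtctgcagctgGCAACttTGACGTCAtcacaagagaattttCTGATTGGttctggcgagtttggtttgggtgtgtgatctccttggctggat
H2-Eb1: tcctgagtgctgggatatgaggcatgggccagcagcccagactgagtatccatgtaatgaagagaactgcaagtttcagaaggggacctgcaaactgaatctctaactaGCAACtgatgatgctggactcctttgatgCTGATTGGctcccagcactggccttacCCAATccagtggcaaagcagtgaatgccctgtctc
H2-K1: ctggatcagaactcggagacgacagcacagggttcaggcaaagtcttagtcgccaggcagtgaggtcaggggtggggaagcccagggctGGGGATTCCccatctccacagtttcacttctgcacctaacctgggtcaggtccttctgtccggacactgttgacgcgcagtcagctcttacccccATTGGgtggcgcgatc
B2m: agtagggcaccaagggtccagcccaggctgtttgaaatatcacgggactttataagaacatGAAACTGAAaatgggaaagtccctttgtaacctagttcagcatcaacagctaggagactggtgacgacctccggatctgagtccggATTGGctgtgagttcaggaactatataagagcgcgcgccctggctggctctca

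In the 250 bases before the start, H2-Aa held the Y box 51 bases and the X1 core and X2 box 81 and 74 bases before it, and H2-Eb1 held the Y box 62 bases and the X1 core 91 bases before it. Of all 32851 windows of this length, 3.83% held the Y box, 33.8% its core, 29.9% the X1 core and 1.55% the X2 box. The core of the Y box also lay in the windows of H2-K1, H2-D1 and B2m, and the X1 core in that of H2-D1 and in 1 of the 2 of H2-DMa. H2-DMb1 held the core of the Y box at 61 bases and no full Y box, and the other H2-DMa window held that core at 198 bases. The RefSeq starts of H2-DMa, H2-DMb1 and H2-D1 lie inside the genes as Ensembl draws them. Of the class I genes, H2-K1 held the enhancer A element at 111 bases and H2-D1 at 171 bases, an element found in 0.213% of all windows. B2m held the interferon response core at 139 bases, found in 7.13% of windows, and H2-D1 held a Y box on the opposite strand at 53 bases. None of these genes had the gamma-activated site TTCNNNGAA (7.02% of windows) in its window. Aligned without gaps at the best offset, the H2-K1 and H2-D1 windows were identical at 166 of 190 bases (87.4%). A match is a run of letters and not a measured binding site. Only these exact spellings were searched, so variants of an element are unmarked, and a window without a match may still hold one.

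Each library held 17095433 to 28780140 counts on genes, and 290 genes were called lower and 374 higher in AAV8-AGXT livers at an adjusted p under 0.05 (edgeR quasi-likelihood test, Benjamini-Hochberg adjustment over all genes tested). These are 1.9% and 2.45% of the genes tested, or 4.35% in both directions. The mouse Agxt gene, the counterpart of the human transgene, was at 148 to 180 CPM (read counts scaled to a common library size with edgeR's TMM factors) in the AAV8-GFP livers and at 201 to 405 CPM in the AAV8-AGXT livers (log2 fold change 0.90, edgeR adjusted p = 0.0489). Human AGXT has no row of its own in the mouse annotation, so this row checks the labels only in part. The liver of mouse 308 stood apart, with 56.3% of its tallied read pairs on genes against 62.4% to 69.1% in the other mice. The members, the class II to class I ratio and the gene lists are given without it further on.

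The class II genes were lower in the AAV8-AGXT livers and the class I genes overlapped between the groups, but none of the 10 passed the test across all genes. The median log2 fold change of the 7 class II genes was -1.08, beside 0.018 for all genes tested, and their group means in AAV8-AGXT livers were between 41.7% and 65.0% of those in AAV8-GFP livers. In 5 of the 7 every AAV8-AGXT mouse was below every AAV8-GFP mouse, as for 7.63% of all genes tested (8.93% had all AAV8-AGXT mice above). The median of the 3 class I genes was -0.15, and in all 3 the groups overlapped. By edgeR 0 of 7 class II and 0 of 3 class I genes were called, whereas 6 class II genes and no class I gene had an unadjusted p under 0.05, the level at which 12.6% of all genes were lower. The DESeq2 Wald test called 6 of the 7 class II genes lower, against a background of 3.65% of 28289 genes. Limma with sample quality weights called 2 (background 3.97%), edgeR without the low-count filter called 3 (background 1.52% of 28338 genes), and limma-voom called none, so the call rests on the tool and the filter. The DESeq2 and unfiltered backgrounds include scarce genes that the main filter removed, so they are not on the same base as the other shares.

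**Figure D1:**
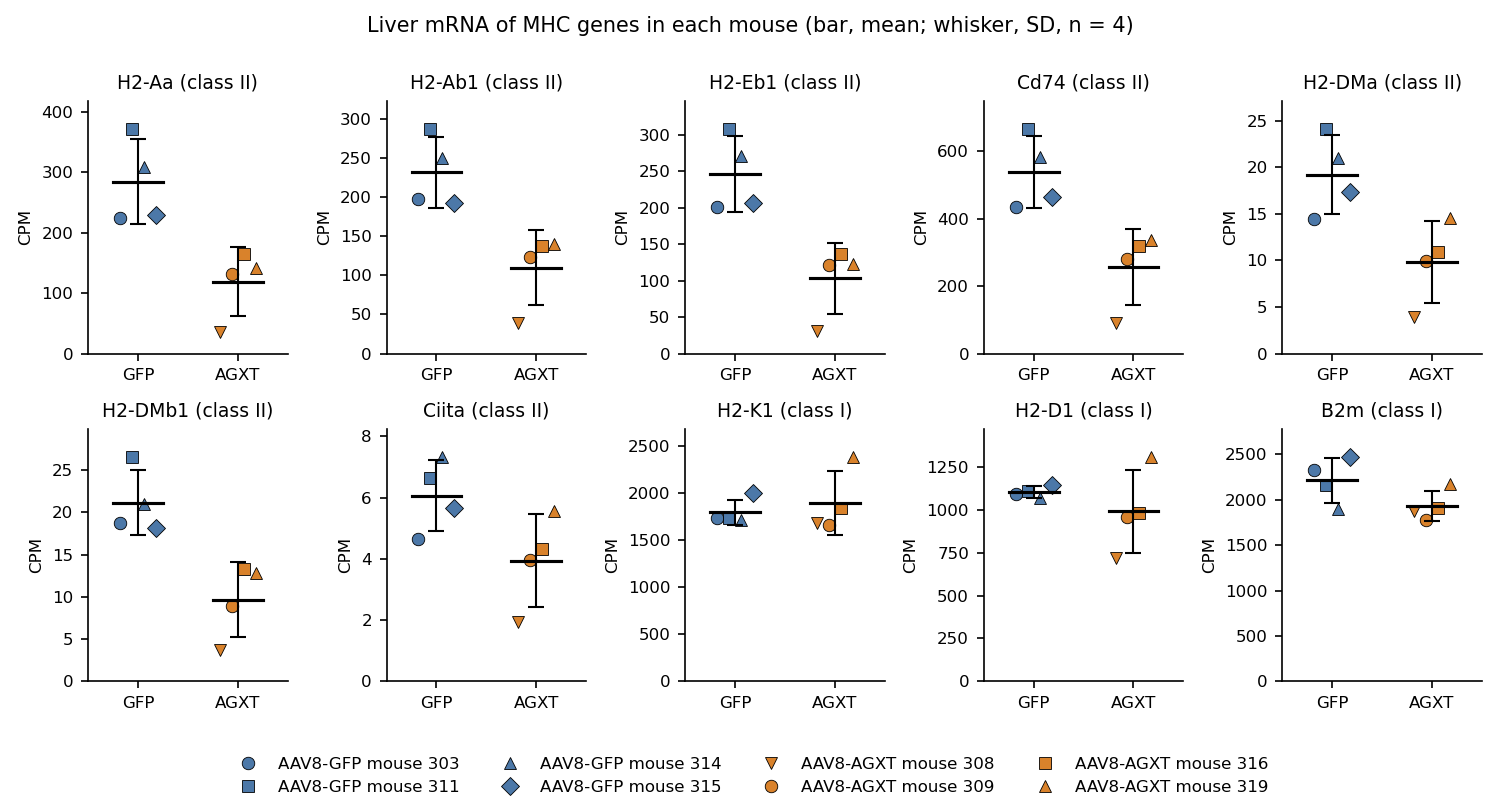
Liver mRNA level in CPM of the 10 genes in each mouse, with AAV8-GFP mice in blue and AAV8-AGXT mice in orange, 1 symbol per mouse, the bar at the group mean and the whisker 1 SD (n = 4). In 5 class II panels the orange points all lie below the blue ones, mouse 308 is the lowest point of all 7 class II panels, and the groups overlap in the 3 class I panels.

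H2-Aa (ENSMUSG00000036594) encodes the alpha chain and H2-Ab1 (ENSMUSG00000073421) the beta chain of I-A, the class II molecule that C57BL/6 mice display. H2-Aa stood at 225, 372, 310 and 230 CPM in AAV8-GFP mice 303, 311, 314 and 315 and at 35.5, 131, 165 and 142 CPM in AAV8-AGXT mice 308, 309, 316 and 319. Every AAV8-AGXT liver was below the lowest AAV8-GFP liver, and mouse 308 was at 12.5% of the AAV8-GFP mean. The log2 fold change of H2-Aa was -1.26 (SE 0.39, 95% confidence interval -2.13 to -0.39, edgeR adjusted p = 0.0846). The exact permutation test (two-sided, 70 ways to divide the mice) gave p = 0.0286, the smallest it can give. Any gene whose groups do not overlap has this permutation p, here and below, so it adds nothing to that separation. Such genes were 7.63% (lower) and 8.93% (higher) of all genes tested. H2-Ab1 stood at 197, 287, 249 and 193 CPM in the AAV8-GFP livers and at 38.5, 124, 137 and 140 CPM in the AAV8-AGXT livers, in the same order of mice. The groups did not overlap, mouse 308 was again by far the lowest, and the other 3 AAV8-AGXT mice were close together. The log2 fold change of H2-Ab1 was -1.08 (SE 0.34, 95% confidence interval -1.84 to -0.31, edgeR adjusted p = 0.0902, exact permutation p = 0.0286).

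H2-Eb1 (ENSMUSG00000060586) encodes the beta chain of the second class II molecule, I-E. C57BL/6 mice carry a broken gene for the I-E alpha chain and so do not assemble I-E, but they do transcribe the beta chain. The pseudogene of that alpha chain, H2-Ea-ps, held 1 count in all 8 libraries together (a gene added after its counts were seen). H2-Eb1 stood at 201, 308, 271 and 206 CPM in the AAV8-GFP livers and at 31.2, 122, 136 and 123 CPM in the AAV8-AGXT livers. Mouse 311 was the highest and mouse 308 the lowest, as for H2-Aa, and the groups did not overlap. The log2 fold change of H2-Eb1 was -1.26 (SE 0.38, 95% confidence interval -2.10 to -0.41, edgeR adjusted p = 0.0806, exact permutation p = 0.0286). Without mouse 308 it was -0.97 and it was the only class II gene that edgeR called (adjusted p = 0.0435), where 0.576% of the genes tested were called lower.

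Cd74 (ENSMUSG00000024610), the invariant chain, was the most abundant class II mRNA, per kilobase of exon as well. It stood at 436, 667, 584 and 465 CPM in the AAV8-GFP livers and at 91.8, 279, 318 and 337 CPM in the AAV8-AGXT livers. All AAV8-AGXT livers were below all AAV8-GFP livers, with mouse 319 the nearest to them. Its log2 fold change was -1.07 (SE 0.35, 95% confidence interval -1.84 to -0.30, edgeR adjusted p = 0.0933, exact permutation p = 0.0286). The Cd74 locus holds the small RNA gene Mir5107 in 12 bases of its exons, and how read pairs on that overlap were assigned is not given in the sources used here.

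H2-DMa (ENSMUSG00000037649) and H2-DMb1 (ENSMUSG00000079547), the chains of the peptide exchange factor, had fewer counts than the I-A chains, with 53 to 868 per library. H2-DMa stood at 14.5, 24.1, 20.9 and 17.3 CPM in the AAV8-GFP livers and at 3.87, 9.98, 10.9 and 14.6 CPM in the AAV8-AGXT livers. Its groups overlapped by the narrowest margin, since mouse 319 was just above mouse 303. The log2 fold change of H2-DMa was -0.96 (SE 0.33, edgeR adjusted p = 0.104, exact permutation p = 0.0571), and 360 bases of its exons lie over Brd2 on the opposite strand. H2-DMb1 stood at 18.8, 26.6, 20.9 and 18.2 CPM in the AAV8-GFP livers and at 3.66, 8.89, 13.3 and 12.8 CPM in the AAV8-AGXT livers. All its AAV8-AGXT values were below all its AAV8-GFP values. The log2 fold change of H2-DMb1 was -1.12 (SE 0.32, edgeR adjusted p = 0.0741, exact permutation p = 0.0286), the lowest adjusted p among the 10 genes. Its neighbour H2-DMb2 is a near copy, and read pairs that align to both were not counted for either.

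Ciita (ENSMUSG00000022504), the class II transactivator, was the scarcest of the 10, with 28 to 217 counts per library. It stood at 4.65, 6.64, 7.33 and 5.65 CPM in the AAV8-GFP livers and at 1.93, 3.97, 4.31 and 5.57 CPM in the AAV8-AGXT livers. The groups overlapped, with mouse 319 above mouse 303. The log2 fold change of Ciita was -0.61 (SE 0.29, 95% confidence interval -1.25 to 0.03, edgeR adjusted p = 0.213, exact permutation p = 0.0571), and it was the one class II gene that no alternative called. Its exons overlap Dexi on the opposite strand over 329 bases.

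Of the class I genes, H2-K1 (ENSMUSG00000061232), a heavy chain, stood at 1731, 1735, 1717 and 1999 CPM in the AAV8-GFP livers and at 1680, 1665, 1846 and 2386 CPM in the AAV8-AGXT livers. Mice 308 and 309 were just below all AAV8-GFP mice and mouse 319 was above them. Its log2 fold change was 0.08 (SE 0.15, 95% confidence interval -0.27 to 0.42, edgeR adjusted p = 0.79, exact permutation p = 0.714). The sign was negative under total-count scaling (-0.16) and without mouse 319 (-0.05). H2-D1 (ENSMUSG00000073411), the other classical heavy chain, stood at 1091, 1110, 1066 and 1145 CPM in the AAV8-GFP livers and at 718, 954, 983 and 1308 CPM in the AAV8-AGXT livers. The AAV8-GFP mice lay close together, whereas the AAV8-AGXT mice spread to both sides of them. Its log2 fold change was -0.15 (SE 0.18, 95% confidence interval -0.55 to 0.24, edgeR adjusted p = 0.612, exact permutation p = 0.486).

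B2m (ENSMUSG00000060802), the light chain, stood at 2331, 2159, 1897 and 2473 CPM in the AAV8-GFP livers and at 1870, 1780, 1907 and 2169 CPM in the AAV8-AGXT livers. The groups overlapped between 1897 and 2169 CPM, with mice 308 and 309 below all AAV8-GFP mice. Its log2 fold change was -0.20 (SE 0.14, 95% confidence interval -0.51 to 0.12, edgeR adjusted p = 0.401, exact permutation p = 0.143). The lower ends of the 3 class I intervals, -0.27, -0.55 and -0.51, mean that an equal level in both groups is not shown. The heavy chains are near copies of one another and of the H2-Q genes, and between 17.4% and 23.4% of the tallied read pairs of a library aligned at several places and were not counted, which makes their levels uncertain.

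**Figure D2:**
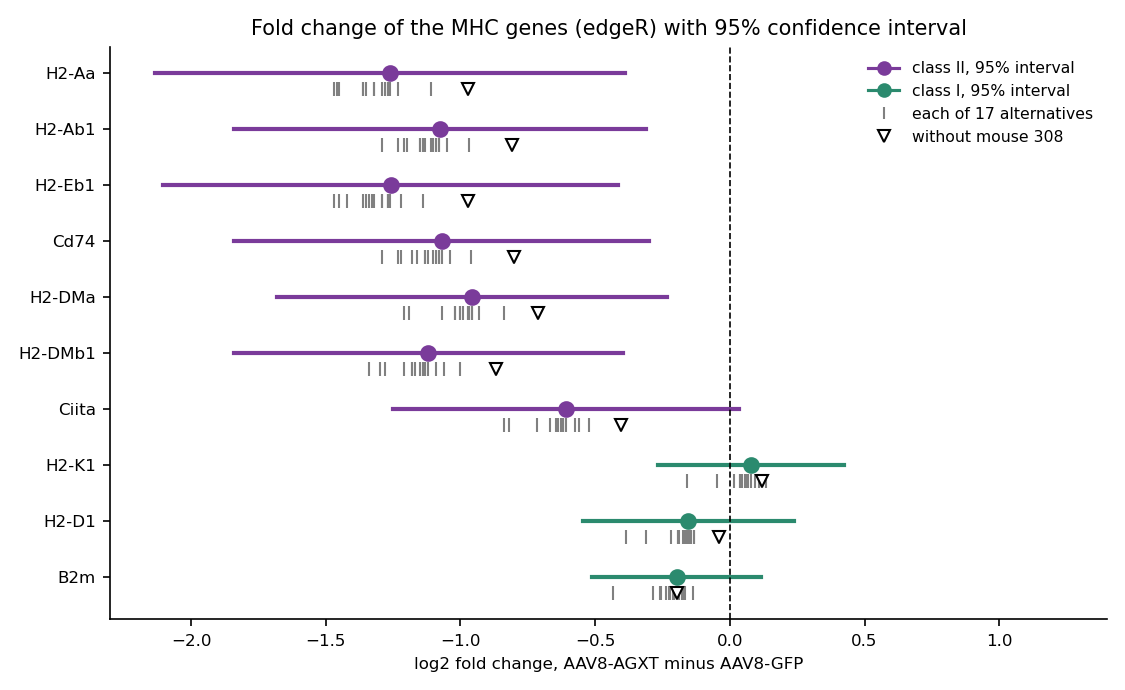
Log2 fold change of each gene, AAV8-AGXT minus AAV8-GFP, from edgeR (dot) with its 95% confidence interval (line), with the values under the 17 alternatives as grey ticks and that without mouse 308 as an open triangle. All values of the 7 class II genes lie below 0, from -1.47 to -0.40, and those of the 3 class I genes lie between -0.43 and 0.14.

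Without mouse 308 the median log2 fold change of the class II genes was -0.81, with a range from -0.97 to -0.40, so this mouse accounted for part of the size of the difference. In 5 class II genes every remaining AAV8-AGXT mouse was below every AAV8-GFP mouse, as for 9.17% of all genes tested. Again 6 of the 7 had an unadjusted p under 0.05 (edgeR). Over all genes, 3422 of the 15795 tested without mouse 308 had such a p, counted in both directions. The standard errors were smaller without it, 0.20 for H2-Aa and 0.16 for H2-Ab1, and the edgeR adjusted p was 0.0565 for H2-Aa and 0.0547 for H2-Ab1. Their log2 fold changes without that mouse were -0.97 and -0.81, beside -0.97 for H2-Eb1, -0.80 for Cd74, -0.71 for H2-DMa, -0.87 for H2-DMb1 and -0.40 for Ciita. For the class I genes the values without it were 0.12 for H2-K1, -0.04 for H2-D1 and -0.195 for B2m, and no gene had an unadjusted p under 0.05. Scaling to total counts alone moved the median of all genes to -0.22. Relative to that median, H2-Aa was at -1.25, Cd74 at -1.07, H2-K1 at 0.06, H2-D1 at -0.17 and B2m at -0.21.

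Compared per kilobase of exon, B2m was the most abundant of the 10 mRNAs in the AAV8-GFP livers at 2575 ± 288 CPM per kb (SD, n = 4), followed by H2-K1 at 611 ± 46.2 and H2-D1 at 428 ± 12.9. Cd74 came next at 320.5 ± 63.8, then H2-Eb1 at 127 ± 26.7, H2-Ab1 at 90.2 ± 17.6 and H2-Aa at 74.9 ± 18.5 CPM per kb. The neighbours H2-Eb1 and H2-Ab1, and H2-Ab1 and H2-Aa, had overlapping ranges of mean ± 1 SD, and the other neighbours did not. H2-DMb1 at 12.6 ± 2.28, H2-DMa at 5.57 ± 1.22 and Ciita at 0.636 ± 0.123 CPM per kb closed the order. The order was the same in the AAV8-AGXT livers, where B2m was at 2246 ± 194, Cd74 at 153 ± 66.9 and Ciita at 0.414 ± 0.158 CPM per kb. These levels use the summed length of all annotated exons and are approximate.

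Set against the class I heavy chains of the same liver, the class II chains made up a smaller share in each AAV8-AGXT mouse than in all AAV8-GFP mice. The summed level of H2-Aa, H2-Ab1 and H2-Eb1 per kilobase was 23.7%, 36.1%, 31.9% and 21.5% of that of H2-K1 and H2-D1 in AAV8-GFP mice 303, 311, 314 and 315. It was 4.75%, 15.5%, 16.5% and 11.8% in AAV8-AGXT mice 308, 309, 316 and 319. The groups did not overlap, with mouse 316 the highest of the AAV8-AGXT mice and mouse 315 the lowest of the AAV8-GFP mice. The log2 ratio was -1.85 ± 0.35 against -3.19 ± 0.83 (SD, n = 4 each), a difference of -1.34 (-0.94 without mouse 308). Because the genes were chosen with results known, this ratio is a description and was given no test. A ratio within a library does not depend on the scaling between libraries, and it was nearly the same without scaling by length (-1.35).

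**Figure D3:**
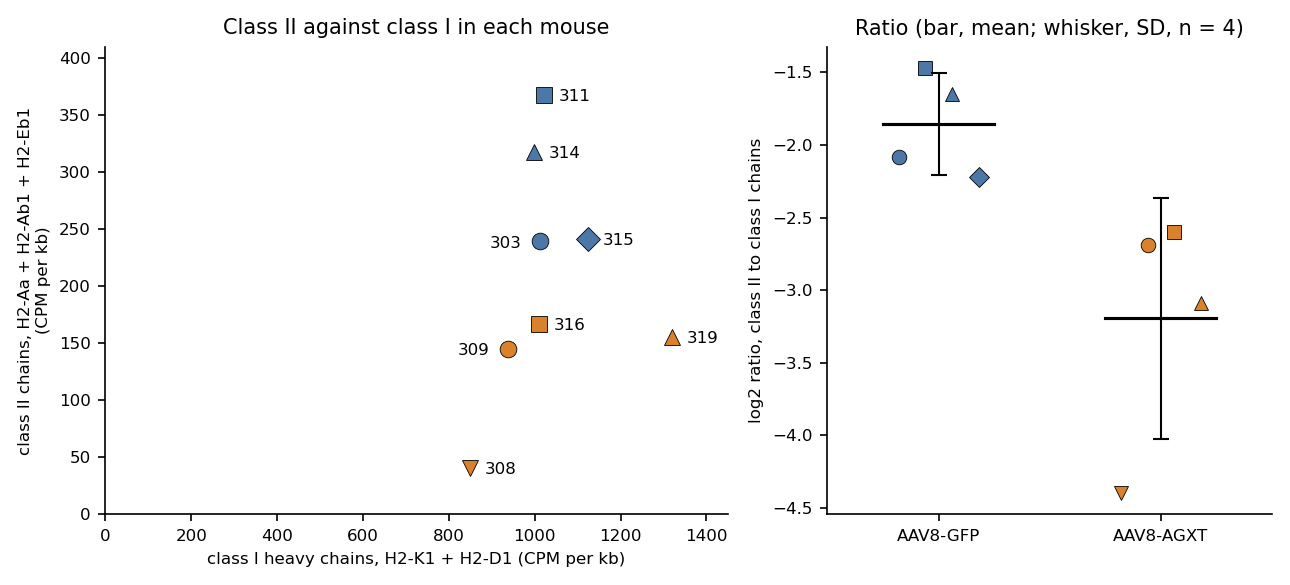
Left, summed level of the class II chains against that of the class I heavy chains in each mouse, both in CPM per kb, with the animal number beside each point and AAV8-GFP in blue and AAV8-AGXT in orange. Right, the log2 ratio of the 2 sums with the group mean and SD (n = 4); the AAV8-AGXT mice, at -2.60 and below, lie under all AAV8-GFP mice, at -2.22 and above.

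Some class II genes kept nearly fixed proportions to one another. Cd74 was between 2.21 and 2.42 times H2-Ab1 in CPM over all 8 livers, with mouse 308 at 2.38, although the level of H2-Ab1 itself ranged from 38.5 to 287 CPM. H2-DMb1 was between 0.072 and 0.0968 of H2-Ab1, and the groups overlapped. H2-Aa was 1.14 to 1.30 times H2-Ab1 in the AAV8-GFP livers and 0.921 to 1.21 times in the AAV8-AGXT livers, and H2-DMa was 0.0733 to 0.09 of it against 0.0795 to 0.104, both with overlap. For H2-Eb1 and Ciita the groups did not overlap. H2-Eb1 was 1.02 to 1.09 times H2-Ab1 in the AAV8-GFP livers and 0.81 to 0.993 times in the AAV8-AGXT livers. Ciita ran the other way, at 0.0231 to 0.0294 of H2-Ab1 in the AAV8-GFP livers and 0.0315 to 0.0502 in the AAV8-AGXT livers. Of the class I genes, H2-D1 was 0.573 to 0.64 of H2-K1 in the AAV8-GFP livers and 0.427 to 0.573 in the AAV8-AGXT livers, so that the groups met at one end. B2m was 1.10 to 1.35 times H2-K1 against 0.909 to 1.11 times, with overlap. These proportions were chosen for description after the values were seen and were not tested.

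Most of the genes lie in the MHC locus on chromosome 17 of GRCm38, where the class II genes sit between class I genes. H2-K1 is at chr17:33996017-34000347 on the minus strand, and H2-DMa at chr17:34119541-34139101 and H2-DMb1 at chr17:34153072-34160230 follow on the plus strand. H2-Ab1 at chr17:34257689-34269419 (plus), H2-Aa at chr17:34282744-34287823 (minus) and H2-Eb1 at chr17:34305867-34316674 (plus) form the far end, and H2-D1 lies beyond them at chr17:35262730-35267499 (plus). Ciita is at chr16:10480059-10528418, B2m at chr2:122147686-122153083 and Cd74 at chr18:60803848-60812652, all on the plus strand. Between H2-K1 and H2-Eb1 another 2 class II genes and 10 genes of other kinds were tested, the latter with the peptide transporter genes Tap1 and Tap2, the immunoproteasome genes Psmb8 and Psmb9 and the nuclear gene Brd2. All 7 class II genes of the stretch had negative log2 fold changes, as had 47.7% of all genes tested, with a median of -1.08 for the 7. The 5 that belong to the 10 genes ranged from -1.26 to -0.96, whereas the scarce H2-DMb2 and H2-Ob were at -0.50 and -0.52. The 10 genes of other kinds had a median of -0.0065 and a range from -0.36 to 0.47, and none was called. Tap2 was the one of these whose groups did not overlap (35.9 ± 1.25 against 27.8 ± 3.41 CPM, log2 fold change -0.36, edgeR adjusted p = 0.0737). Brd2, which overlaps H2-DMa, was at 0.26 and in the opposite direction to it.

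**Figure D4:**
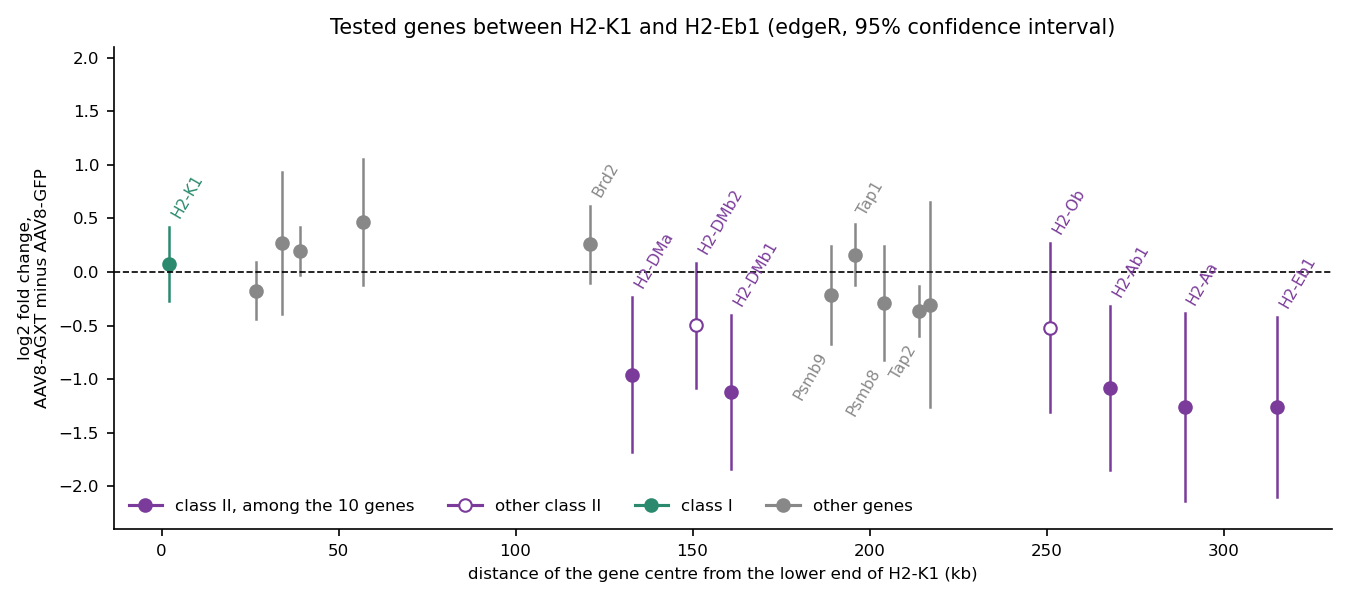
Log2 fold change, AAV8-AGXT minus AAV8-GFP, of the 18 tested genes from H2-K1 to H2-Eb1 against their distance in kb from the lower end of H2-K1, with 95% confidence intervals from edgeR. The 5 class II genes among the 10, in filled purple, lie at or below -0.96, the other class II genes H2-DMb2 and H2-Ob, in open purple, lie at -0.50 and -0.52, and H2-K1, in green, and the 10 genes of other kinds, in grey, lie at or above -0.36.

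The other genes of the 2 routes were described by lists of 59 genes, of which 55 were tested. None was called, and 41 of the 55 had a negative log2 fold change, beside 47.7% of all genes tested. The median of the 55 was -0.21. The genes of the class II promoter complex, which binds the X and Y boxes and recruits Ciita, had a median of -0.23 over 7 genes, and the one with the smallest p was Creb1 (17.6 ± 2.60 against 13.5 ± 1.92 CPM, log2 fold change -0.38, edgeR adjusted p = 0.143). The 6 genes of antigen processing for class II had a median of -0.30, with 4 negative. Ctsh, a lysosomal protease, had the smallest p of them and was higher in all AAV8-AGXT livers (187 ± 18.8 against 251 ± 42.4 CPM, log2 fold change 0.43, edgeR adjusted p = 0.103). In the other direction, the protease gene Ctss was at -0.84 and the reductase gene Ifi30 at -0.72, both with an unadjusted p under 0.05. The other class II locus genes were scarce, with 2 of 4 tested, and H2-DMb2 was at 1.81 ± 0.356 against 1.28 ± 0.301 CPM (log2 fold change -0.50, edgeR adjusted p = 0.258).

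On the class I side, the 8 genes of peptide loading had a median log2 fold change of -0.14, the 5 immunoproteasome genes one of -0.25 and the 3 transactivator genes one of -0.06. Psme1, a proteasome activator subunit, had the smallest p of its list (log2 fold change -0.25, edgeR adjusted p = 0.213), as had the transcription factor gene Irf1 (log2 fold change -0.30, edgeR adjusted p = 0.27). The 13 further class I genes had a median of -0.05. Among them Cd1d1, which presents lipids to natural killer T cells, was higher in all AAV8-AGXT livers, 216 to 423 CPM against 149 to 208 CPM, and lay at the threshold (log2 fold change 0.83, SE 0.20, edgeR adjusted p = 0.0501). H2-Q1, a class I heavy chain named after its values were seen, was the most negative of the 13, at 33.0 to 59.6 CPM against 10.2 to 34.8 CPM, overlapping (log2 fold change -0.84, SE 0.32, edgeR adjusted p = 0.141).

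Interferon gamma is the classical inducer of Ciita. Of its pathway 6 of 7 genes were tested, with a median log2 fold change of -0.13, and Ifng itself was too scarce. Ifngr1, a receptor chain, was lower in all AAV8-AGXT livers (45.5 ± 7.66 against 31.1 ± 7.61 CPM, log2 fold change -0.55, edgeR adjusted p = 0.112). So was the scarce Socs1, named after its values were seen (2.045 ± 0.315 against 1.117 ± 0.53 CPM, log2 fold change -0.86, edgeR adjusted p = 0.157). The costimulatory genes had a median of -0.53 over 5 tested, with Icosl, the ICOS ligand, at 6.04 ± 1.78 against 3.23 ± 1.12 CPM (log2 fold change -0.90, edgeR adjusted p = 0.0979). Without mouse 308 the median of the costimulatory genes was -0.22, that of class II antigen processing was -0.07, that of the other class II locus genes was -0.65 over 3 tested, the other pathway lists had medians from -0.26 to 0.02, and no gene of the pathway lists was called.

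Several markers of the cells that carry class II were lower beside the class II genes, and their part in the result was not tested. For the counts of negative markers below, the share among all genes tested was 47.7%. The 3 general leukocyte markers summed to 92.0 to 155 CPM in the AAV8-GFP livers and 34.7 to 101 CPM in the AAV8-AGXT livers, with all 3 negative and none called. The most abundant, Laptm5, was at 58.5 ± 14.5 against 42.5 ± 18.6 CPM. The 10 dendritic cell markers summed to 70.4 to 100.1 CPM against 32.5 to 61.9 CPM, without overlap, and all 10 had negative log2 fold changes (median -0.65, none called). Irf8 was the most abundant of them (25.2 ± 4.97 against 15.3 ± 5.93 CPM), followed by Itgax (25.7 ± 6.43 against 10.3 ± 6.11 CPM). The size differed widely within this list. Zbtb46 was at -0.013 (8.90 ± 1.12 against 8.85 ± 2.11 CPM), Clec9a at -0.25 and Xcr1 at -0.41, while Cd209a was at -1.38. The 8 B cell markers summed to 9.22 to 18.6 CPM against 8.84 to 12.6 CPM, overlapping, with 7 tested, 5 negative and none called. Cd22 led them at 4.77 ± 1.35 against 3.34 ± 1.28 CPM. Ms4a1 (log2 fold change 0.55, edgeR adjusted p = 0.447, 3 to 19 counts per library) and Pax5 (0.02) were the positive ones.

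Among macrophage lists the directions differed. The 6 general macrophage markers summed to 371 to 652 CPM against 110 to 410 CPM, with 5 of 6 negative and none called. Lyz2 led them at 297 ± 93.2 against 162 ± 81.6 CPM. The positive marker was Adgre1, whose groups overlapped (13.8 ± 4.18 against 15.0 ± 7.98 CPM, log2 fold change 0.13, edgeR adjusted p = 0.86). The 6 markers of recruited macrophages summed to 363 to 851 CPM against 92.3 to 379 CPM. All 6 were negative and Cd9 was called lower (62.5 ± 7.66 against 30.7 ± 7.59 CPM, log2 fold change -1.03, edgeR adjusted p = 0.0298), while Spp1 was the most abundant (484 ± 194 against 157 ± 84.8 CPM). The 6 Kupffer cell markers summed to 232 to 363 CPM against 191 to 774 CPM, and 5 of the 6 were positive, Vsig4 only at 0.037. The high sum was that of mouse 319. On the log2 scale over the AAV8-GFP mean it was at 1.396, against -0.621, -0.141 and 0.118 in mice 308, 309 and 316. Marco stood at 156 CPM in mouse 319 and at 5.94, 12.4 and 10.4 CPM in those mice. Cd163, a scavenger receptor of resident macrophages, was called higher (1.10 ± 0.395 against 16.2 ± 12.6 CPM, log2 fold change 3.88, edgeR adjusted p = 0.0236), while the most abundant, Cd5l, was at 167 ± 34.3 against 164 ± 107 CPM. No marker of these 6 lists was at 0 counts in any mouse.

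Of the remaining cell types, the 8 T and NK cell markers had a median log2 fold change of -0.84, with 6 negative and none called. Cd8a was the most abundant at 4.05 ± 1.76 against 0.943 ± 0.858 CPM, and Gzma was at 0 in 1 mouse. Cd4 (log2 fold change 0.345) and Cd3d (0.0036) were the positive ones. The 5 cholangiocyte markers were all negative (median -1.34, none called, led by Spp1). The 6 stellate cell markers had a median of -0.57, with 4 negative, while Lrat (0.107) and Reln (0.222) were positive. Dcn was the most abundant (212 ± 28.9 against 191 ± 84.5 CPM) and Acta2 was called lower (8.31 ± 2.51 against 4.17 ± 0.351 CPM, log2 fold change -0.99, edgeR adjusted p = 0.0427). The 5 sinusoidal endothelial markers were all positive (median 0.22, none called), with Stab2 at 59.1 ± 9.21 against 65.0 ± 9.90 CPM. The 6 hepatocyte markers were all positive (median 0.46), with Alb at 30000 ± 4651 against 37990 ± 4545 CPM and Cps1 called higher (739 ± 118 against 1436 ± 201 CPM, log2 fold change 0.96, edgeR adjusted p = 0.0279). Mouse 308 had the highest sum of hepatocyte markers and the lowest sums of leukocyte, dendritic cell and macrophage markers. Without it the median log2 fold change was -0.27 for the leukocyte, -0.51 for the dendritic cell, -0.32 for the B cell, -0.54 for the general macrophage, -0.78 for the recruited macrophage and 1.59 for the Kupffer cell markers. The medians of the remaining lists without it were -0.69 for T and NK cells, -1.09 for cholangiocytes, -0.50 for stellate cells, 0.07 for sinusoidal endothelium and 0.36 for hepatocytes. Cd9, Cd163 and Cps1 were again called and Acta2 was not.

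**Figure D5:**
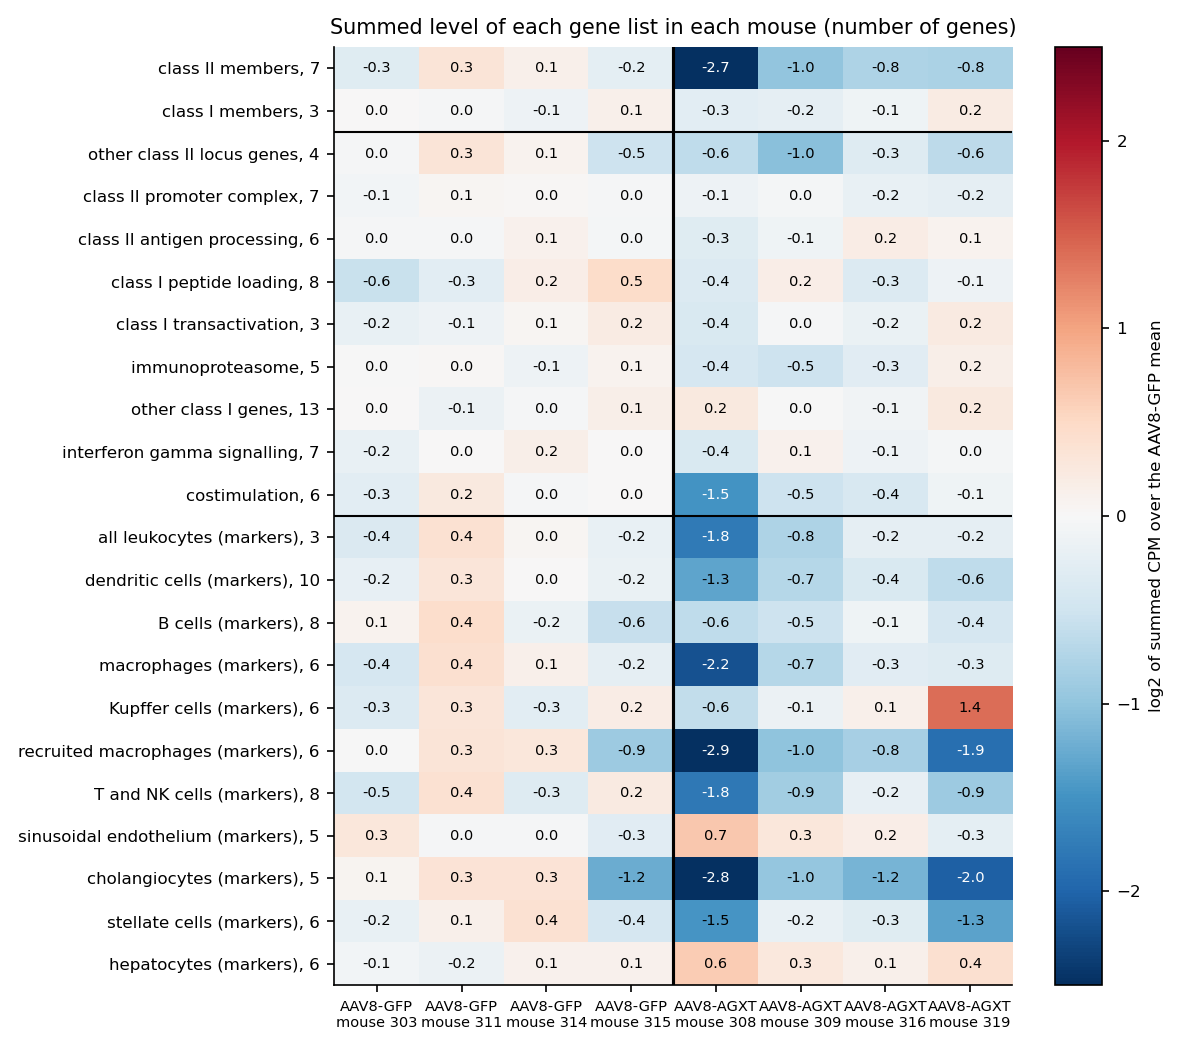
Log2 of the summed CPM of each gene list in each mouse over the AAV8-GFP mean of that list, with the number of genes after each name; blue is lower and red is higher. The class II row reads -0.99, -0.78 and -0.80 in AAV8-AGXT mice 309, 316 and 319 and -2.71 in mouse 308, the class I row stays between -0.26 and 0.20, and the macrophage and recruited macrophage rows are lowest in mouse 308 as well.

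Divided by these markers, the difference in class II depended on the marker. The summed CPM of H2-Aa, H2-Ab1 and H2-Eb1 was 6.05 to 6.80 times the sum of the general leukocyte markers in the AAV8-GFP livers and 3.04 to 5.47 times in the AAV8-AGXT livers, without overlap. Against the dendritic cell markers it was 8.76 to 10.1 times and 3.24 to 7.73 times, and against the B cell markers 42.7 to 68.3 times and 11.9 to 39.6 times, again without overlap. Against the general macrophage markers it was 1.48 to 1.68 times and 0.954 to 1.24 times, and against the Kupffer cell markers 1.88 to 3.37 times and 0.524 to 1.41 times, without overlap in either. By contrast, against the recruited macrophage markers it was 0.921 to 1.74 times and 1.11 to 2.20 times, and the groups overlapped. Spp1 made up most of that sum and of the cholangiocyte sum, against which the groups also overlapped (1.11 to 2.80 times and 1.38 to 3.14 times). Without Spp1 the groups still overlapped, at 3.81 to 4.04 times and 2.69 to 5.65 times the recruited macrophage markers and at 13.0 to 26.8 times and 7.66 to 24.7 times the cholangiocyte markers. Overlap was also seen against the T and NK cell markers (38.2 to 73.8 times and 25.8 to 54.0 times). It was seen against the stellate cell markers too (1.06 to 1.47 times and 0.481 to 1.7 times). There was none against the sinusoidal endothelial markers (3.79 to 7.39 times and 0.49 to 3.59 times). Nor was there any against the hepatocyte markers (0.0122 to 0.0225 times and 0.00142 to 0.00833 times). Of 7 single genes tried, the groups overlapped against 3 and did not against 4. They overlapped against Itgax (28.7 to 31.9 times and 25.8 to 47.6 times), which encodes CD11c, Cd68 (12.3 to 15.6 times and 10.9 to 14.3 times), a lysosomal protein of macrophages, and Coro1a (19.7 to 25.5 times and 14.7 to 26.9 times). They did not overlap against Ptprc (21.5 to 33.8 times and 14.8 to 19.8 times), which encodes CD45, and Lyz2 (2.36 to 3.05 times and 1.77 to 2.28 times). Nor did they against the macrophage genes Adgre1 (44.9 to 77.5 times and 15.9 to 31.5 times) and Clec4f (5.62 to 13.3 times and 1.07 to 4.51 times). Itgax, Cd68 and Coro1a were themselves lower in all AAV8-AGXT livers. Itgax was at 25.7 ± 6.43 against 10.3 ± 6.11 CPM (log2 fold change -1.31, edgeR adjusted p = 0.103) and Cd68 at 53.9 ± 10.7 against 26.9 ± 12.9 CPM (edgeR adjusted p = 0.111). Coro1a was at 34.15 ± 10.19 against 16.26 ± 7.233 CPM (log2 fold change -1.065, edgeR adjusted p = 0.0833). These ratios were chosen after seeing the data and carry no test.

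The genes whose level over the 8 mice was most like that of the class II genes were ranked by Pearson's r of log2 CPM with the mean standardized level of H2-Aa, H2-Ab1, H2-Eb1 and Cd74. The 5 highest outside the 10 genes were Csf1 and Incenp (both r = 0.995), Msn (0.995), Sh3bp1 (0.994) and Gltp (0.993). Their Spearman's rho was 0.952, 0.881, 0.976, 0.976 and 0.976. Csf1 encodes a macrophage growth factor, Incenp a protein of dividing chromosomes and Msn moesin, a linker of the membrane to actin. With the group means subtracted their r was 0.988 to 0.99, and without mouse 308 it was 0.978 to 0.98. Without mice 308 and 311, the farthest from the median, it was 0.966 to 0.983. All 5 were lower in every AAV8-AGXT liver, as for 7.63% of all genes tested, by log2 fold changes of -0.53 to -0.80, and none was called. The mean class II level used for the ranking itself divided the groups, at 0.41 and above in AAV8-GFP mice and -0.107 and below in AAV8-AGXT mice. The direction of these 5 thus largely follows from how they were picked. All points share 8 libraries, and 247 genes outside the 10 had an r of at least 0.95, so these coefficients describe the mice and carry no test.

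By the same measure the remaining class II genes followed, H2-DMb1 at r = 0.987, H2-DMa at 0.982 and Ciita at 0.954. The class I genes did not, with H2-D1 at 0.772, B2m at 0.446 and H2-K1 at 0.092. Without mouse 308, Ciita was at 0.815 and H2-D1 at 0.151, so the likeness of H2-D1 rested on that mouse.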

How the data were processed

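Poly(A) RNA of 8 livers was made into stranded paired-end libraries by the authors (Illumina Stranded mRNA Prep Ligation), 1 for each mouse. Per the methods and the submitters' processing notes, reads were checked with FastQC 0.11.8, trimmed with Trimmomatic 0.35, aligned with HISAT2 2.1.0.13 to GRCm38 and counted with HTSeq on Ensembl genes. The deposited values are raw counts per gene, not normalized or filtered. The strand option and overlap mode of the counting are not given in the sources used here, so overlapping genes are uncertain, and reads with several alignments were not counted. HTSeq's 5 tallies of uncounted reads were left out, and counts on genes made up 56.3% to 69.1% of all tallied read pairs.

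Gene symbols, positions and exon lengths came from GENCODE M21 on the same build, which matched 52489 genes (147 did not match). Counts were tested in R 4.3.3 with edgeR 4.0.16, with filterByExpr, TMM factors, a non-robust quasi-likelihood fit of treatment alone on all 8 mice, and Benjamini-Hochberg adjusted p-values across 15248 genes. Log2 fold changes are edgeR's, and 95% confidence intervals use its standard error and degrees of freedom. Levels are TMM-scaled CPM, with a prior count of 2 on the log2 scale. Single genes were also tested by a two-sided exact permutation of the mean CPM, whose smallest p for 4 against 4 mice is 0.0286 and which was not adjusted over the 10 genes. Within a group, Pearson's r of log2 CPM across genes was 0.959 to 0.983 for any 2 mice. Counting error weighs most on scarce genes such as Ciita (28 to 217 counts per library). The edgeR code was tested on simulated data.

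The genes, lists and alternatives were chosen with earlier results of these data known. Genes named from the lists were those called, otherwise the gene of smallest p in a pathway list and the most abundant of a marker list; others named for a reason given beside them were chosen after their values were seen. Alternatives were DESeq2 1.42.0, limma 3.58.1 (voom, with and without sample quality weights), robust estimation, DESeq2 size factors, upper-quartile scaling, total counts, no low-count filter, at least 10 counts in every mouse, and each mouse left out in turn. Promoter windows were those of RefSeq on GRCm38.p6.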

Additional observations from a re-analysis of the deposited data

Results flagged for a closer look

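Each group of 4 mice was checked for a value far from the others by Dixon's ratio, the gap to the nearest value over the whole range, against its 95% critical value. Of 22 groups (the CPM of 10 genes and the class II to class I ratio, in 2 treatments) 3 passed it, where chance flags about 1 group in 20, and the genes share their mice. H2-Ab1 in AAV8-AGXT mouse 308 was at 38.52 CPM, low against 123.5 to 140.0 CPM in the other 3, with a gap of 0.838 of the range. H2-Eb1 in the same mouse was at 31.21 CPM against 121.6 to 135.9 CPM, with a gap of 0.863 of the range. H2-K1 in AAV8-GFP mouse 315 was at 1999 CPM, high against 1717 to 1735 CPM in the other 3, with a gap of 0.936 of the range. Without mouse 308 the log2 fold changes of H2-Ab1 and H2-Eb1 were -0.81 and -0.97, and without mouse 315 that of H2-K1 was 0.14.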

How the results depend on the processing

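The 7 class II genes had negative log2 fold changes under all 17 alternatives, with gene values from -1.47 to -0.40, and the adjusted p of H2-Aa ranged from 0.0127 to 0.235. Their number called lower by edgeR, 0, was 6 with the DESeq2 Wald test, 2 with limma quality weights and 3 without the low-count filter, and between 0 and 1 when one mouse was left out, the 1 being without mouse 308. Limma-voom and the other scalings called none. H2-K1 changed sign with total counts (-0.159) and without mouse 319 (-0.0492; range with one mouse left out -0.0492 to 0.136), and the class I median moved from -0.155 to -0.386 with total counts, a setting that moved all genes. Genes called higher and lower in all, 374 and 290, were 1068 and 1033 with DESeq2, 804 and 606 with quality weights and 144 and 857 with total counts. Leaving out one mouse gave between 2 and 379 higher and between 0 and 325 lower. Without mouse 311 they were 2 and 0, without mouse 314 they were 11 and 4, and without mouse 319 they were 12 and 2, so an adjusted p with 4 mice a group depends on single mice. The causes were not tested. With one mouse left out, the class II median ranged from -1.22 to -0.809, the class I median from -0.254 to -0.0407, and the difference of the class II to class I log2 ratio from -1.54 to -0.937, the last without mouse 308. No paired analysis was possible because the groups share no animal numbers.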

Other observations

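Some genes of the 2 routes had levels that no rule named, and they are given here as values, chosen after they were seen. H2-Q10, a class I heavy chain that hepatocytes secrete, was at 2033 to 2570 CPM in the AAV8-GFP livers and at 1980 to 2715 CPM in the AAV8-AGXT livers (log2 fold change 0.06, edgeR adjusted p = 0.819). H2-Q4 was at 83.6 to 108.6 CPM against 44.1 to 84.6 CPM, overlapping (log2 fold change -0.51, edgeR adjusted p = 0.135). Nlrc5, the class I transactivator, was at 57.0 to 68.9 CPM against 52.2 to 89.1 CPM (log2 fold change 0.09, edgeR adjusted p = 0.741). Ctss, the protease that trims the invariant chain, was at 110 to 186 CPM against 28.4 to 125.2 CPM, overlapping (log2 fold change -0.84, edgeR adjusted p = 0.18). Ifi30, a thiol reductase of the antigen-processing compartment, was at 39.2 to 54.9 CPM against 15.3 to 39.6 CPM, overlapping (log2 fold change -0.72, edgeR adjusted p = 0.107).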
